A study of Oryctolagus cuniculus with 8 samples.

Results

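The genes described here encode subunits and assembly factors of the mitochondrial respiratory chain and of ATP synthase. The tissue was forebrain from pups of the New Zealand rabbit, taken at postnatal day 14 after preterm delivery, with and without dexamethasone, a synthetic glucocorticoid. A probe was a member if its description on the array held 1 of 6 phrases, which name NADH dehydrogenase (complex I), succinate dehydrogenase (complex II), ubiquinol-cytochrome c reductase and cytochrome c-1 (complex III), cytochrome c oxidase subunits (complex IV) and mitochondrial H+ transporting ATP synthase (complex V). The phrase for cytochrome c-1 matched no probe. The other phrases found 129 of 43603 probes, which stand for 40 of 23276 genes. Of these genes 20 belong to complex I, 4 to complex II, 5 to complex III, 4 to complex IV and 7 to complex V, and 5 of the 40 are assembly factors and not subunits.

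The pups were taken by Caesarean section at gestational day 29, with term at day 32, kept in an incubator and fed by gavage. The control group was given saline, and the treated group was given dexamethasone into muscle at 0.25 mg/kg 2 times a day over at most 5 days. Each group held 4 samples on 2 of 4 Agilent arrays that read a pair of samples in the dyes Cy3 and Cy5. Both samples of an array came from the same group, with replicates 1 and 3 in Cy3 and replicates 2 and 4 in Cy5, so that array, slide and treatment cannot be told apart. The arrays report RNA of whole forebrain, in which fewer cells of a type and less RNA per cell cannot be told apart.

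Complexes I and II pass electrons from NADH and succinate to ubiquinone, complex III passes them on to cytochrome c, and complex IV hands them to oxygen. Complexes I, III and IV pump protons out of the mitochondrial matrix, and ATP synthase, also called complex V, makes ATP as the protons flow back. Most subunits are encoded in the nucleus, a few in mitochondrial DNA, and the complexes are put together with the help of assembly factors that do not stay in the finished enzyme. In the brain this chain supplies most of the ATP for ion pumping and synaptic transmission.

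With dexamethasone most of the measured genes lay a little higher than with saline, but 0 of the 31 member genes that could be tested changed by the test, against 0.0626% of all 11184 genes tested. The test was limma, with a term for dye and the arrays as random blocks, at a Benjamini-Hochberg adjusted p under 0.05, and differences are in log2 units of normalised intensity. Of the 31 genes 25 had a difference above 0 (80.6%, against 54.3% of all genes), and 6 lay below 0. The median difference was 0.16 over the members and 0.02 over all genes, and the members ranged from -0.22 (COX7B2) to 0.50 (NDUFAF2). In the 24 members with values in all 8 samples, the SD between samples of a group in the median deviation was 0.0831. The samples of a group sat in pairs on 2 arrays, so this SD does not rest on 4 separate arrays.

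At an unadjusted p under 0.05 there were 4 members, all higher with dexamethasone: NDUFAF2, NDUFS1, SDHD and UQCRC1. Over all genes 6.37% passed this rule with a higher value and 7.43% with a lower one. In 1 member, SDHD, the 4 dexamethasone samples lay above the 4 saline samples without overlap, which was so for 5.95% of all genes. No member had the opposite separation, against 7.47% of all genes. The smallest adjusted p among the members was 0.338, for NDUFAF2.

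**Figure D1:**
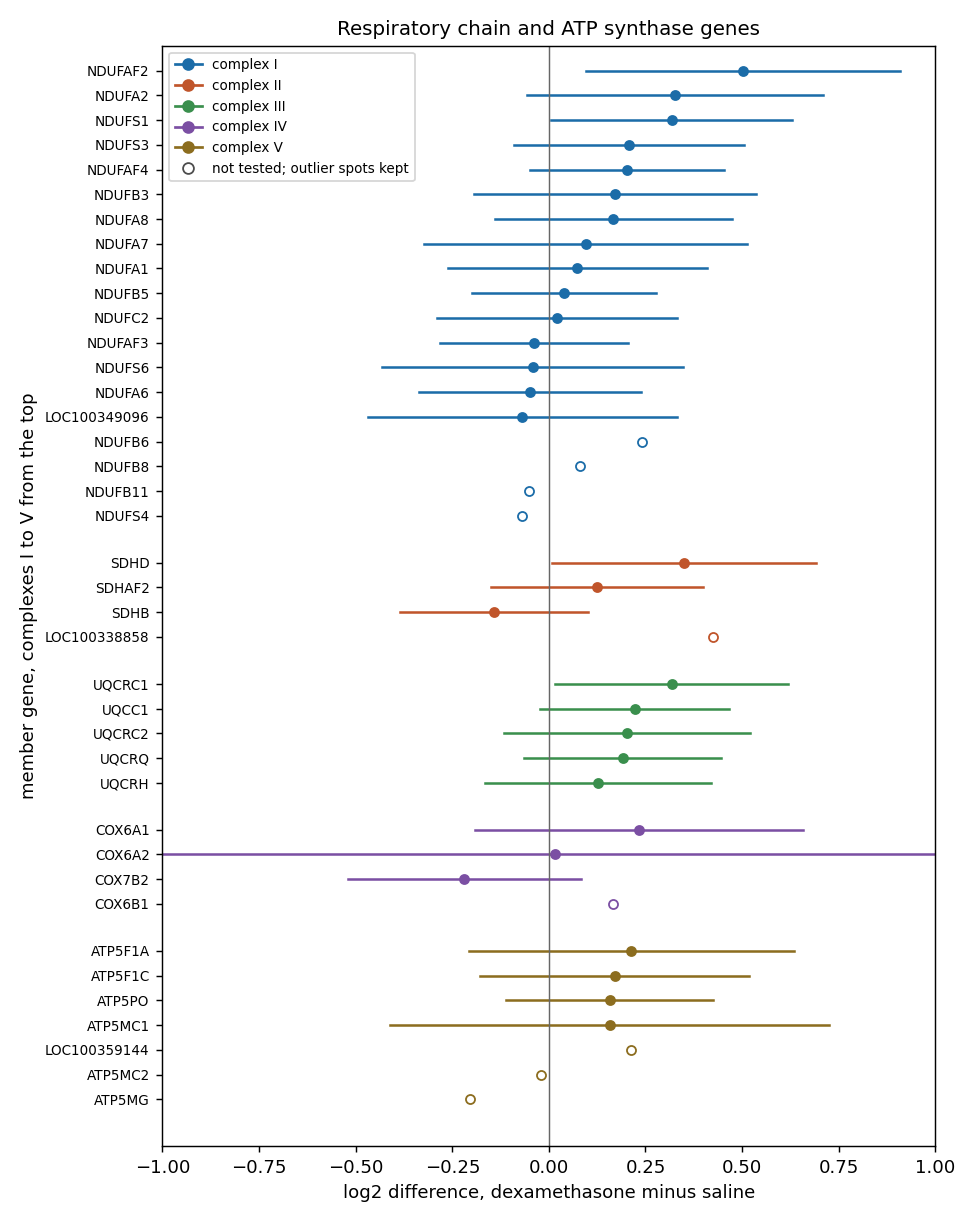
Log2 difference (dexamethasone minus saline) on the x axis for member genes on the y axis, grouped by complex, with 1 of the 40 not shown. Filled points with lines are limma estimates with 95% intervals for tested genes, and open points are the 9 genes that could be estimated only with outlier spots kept. Most filled points lie above 0, and the interval of COX6A2 (-1.84 to 1.87) runs past both ends of the axis.

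The difference of the members was not the same over the 4 arrays. In the 24 member genes with values in all 8 samples, the median deviation from the gene's own mean was 0.02 in saline 1 and 0.00284 in saline 2, but -0.12 in saline 3 and -0.19 in saline 4. In the dexamethasone samples it was 0.04, 0.02, 0.07 and 0.16 in replicates 1 to 4. Saline 3 and saline 4, which shared an array, thus lay below the 6 other samples, and saline 1 and saline 2 lay just under the lowest dexamethasone sample. Over all 10038 genes with 8 values the same median stayed between -0.03 and 0.01.

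Gene by gene, saline 4 was the lowest of the 8 samples in 9 of the 24 members (37.5%, against 9.72% of all genes), and dexamethasone 4 was the highest in 10 (41.7%, against 13.8%). Both samples of the second saline array lay below all 4 dexamethasone samples in 11 of the 24 members (45.8%, against 24.6% of all genes), and both samples of the first saline array did so in 2 (8.33%, against 11.1%). Each array was left out in turn, once with the brightest testable probe chosen anew and once with the probes of the full analysis kept. Without the second saline array the median difference was 0.03 over 35 members with 23 above 0 (65.7%, against 52.5% of all genes), and 0.06 over 30 members with 21 above 0 when the probes were kept. In these fits 0 members were called, where 1.7% and 1.85% of all genes were.

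Without the first saline array the median was 0.22 over 29 members, with 20 above 0 and 8 called, where 20.9% of all genes were called. With the probes kept it was 0.27 over 25 members, with 19 above 0 and 7 called, against 21.3% of all genes. Among the members described in detail, NDUFAF2, NDUFS1, NDUFA2, UQCC1 and UQCRQ were called higher in both of these fits. Their adjusted p-values by limma were 0.0132 to 0.0402 when the probes were kept. Members not described in detail were not followed gene by gene in these fits. Without the first dexamethasone array the median was 0.20 with either choice of probes and 0 members were called, against 0 of all genes. Without the second it was 0.13 with either choice and 0 members were called, against 0.00897% and 0.00901% of all genes.

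**Figure D2:**
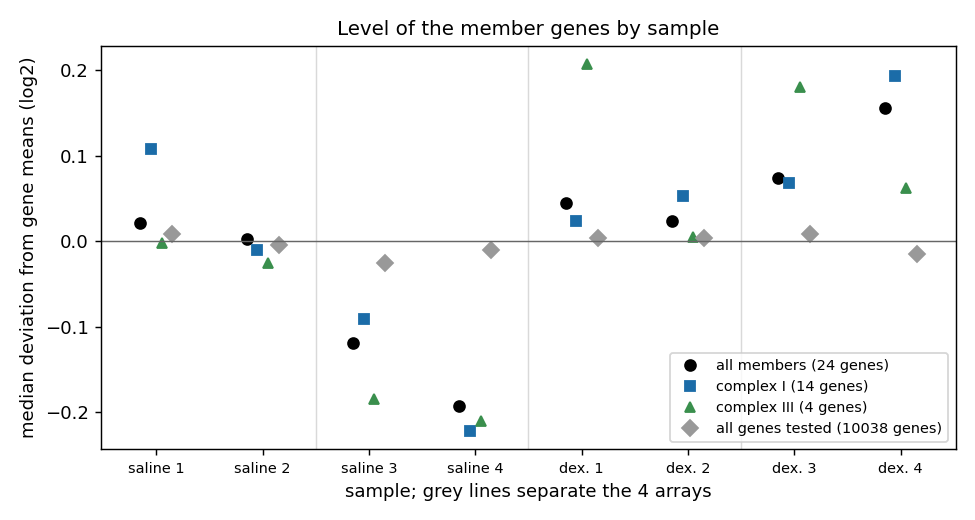
Median deviation of genes from their own mean over the 8 samples, in log2 units on the y axis, for each sample on the x axis. Points stand for the 24 members with 8 values, the 14 of complex I, the 4 of complex III and all 10038 genes, and the members of saline 3 (-0.12) and saline 4 (-0.19) lie lowest.

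Part of the members' signal was removed before the test. The scanner software marks a spot as an outlier where its pixels are uneven or it departs from its replicates, and marked spots were left out for the sample concerned. Of the 127 member probes kept as above background, the share left out was 24.4%, 14.2%, 45.7% and 34.6% in saline 1 to 4, and 9.45%, 8.66%, 5.51% and 5.51% in dexamethasone 1 to 4. The groups did not overlap in this share, and the same holds for all kept probes, at 3.85% to 12.9% with saline and at most 2.11% with dexamethasone.

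The marks were frequent on bright spots. Among the 1654 kept probes with a mean log2 intensity over 13, the share left out ran from 12.3% to 62.1% in the saline samples and from 4.59% to 6.53% in the dexamethasone samples. Such probes made up 42.5% of the kept member probes and 7.14% of all kept probes. The shares and medians given for members and for all genes were thus not matched for brightness. Testing required 3 or more values on either side, and 9 members fell short of this in spite of being well above background: NDUFB6, NDUFB8, NDUFB11 and NDUFS4 of complex I, LOC100338858 of complex II, COX6B1 of complex IV, and ATP5MC2, ATP5MG and LOC100359144 of complex V.

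With outlier spots kept, the 40 members could all be tested. Then 31 of 40 lay above 0 with a median of 0.15, against 0.02 over all 11700 genes, and 0 members were called against 0.0513% of all genes. At an unadjusted p under 0.05 there were 6 members, where 13.6% of all genes passed. The groups were apart with dexamethasone higher in 2 members, UQCRC2 and LOC100338858, against 5.84% of all genes, and SDHD overlapped when read by another of its probes. In UQCRC2 and LOC100338858 the spots of saline 3 and saline 4 were among those marked as outliers. The 9 genes added by this setting ranged from -0.20 (ATP5MG) to 0.42 (LOC100338858), with 5 above 0. The part of the outlier marks in the differences was not tested beyond this setting.

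**Figure D3:**
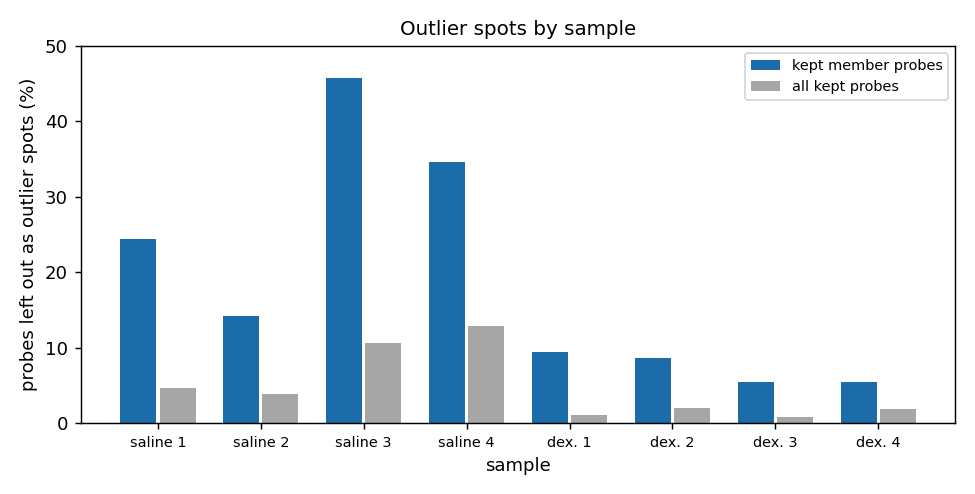
Share of probes left out as outlier spots, in percent on the y axis, in each of the 8 samples on the x axis. Blue bars are the 127 kept member probes and grey bars all kept probes, and saline 3 has the highest share of member probes (45.7%).

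Complex I was represented by 17 subunits and 3 assembly factors. Of its 16 tested genes 12 lay above 0, with a median of 0.08, and 0 changed by the test. NDUFS1 is the largest subunit of the module that takes electrons from NADH. Its log2 intensity was 12.47, 12.65, 12.08 and 12.36 in saline 1 to 4 and 12.70, 12.59, 12.67 and 12.87 in dexamethasone 1 to 4. Saline 2 lay above dexamethasone 2, so that the groups overlapped by that pair, and saline 3 was the lowest sample. The difference was 0.32 ± 0.14 (SE, n = 4 and 4), a fold of 1.25, with an adjusted p of 0.360 by limma. Its second probe, 60 bases closer to the start of the transcript, gave 0.15 ± 0.13 (SE).

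The probe that stood for NDUFS1 lies on rabbit chromosome 7 (oryCun2, chr7:146915276-146916808, minus strand), where its 60 bases span 1533 bases of genome. It is shown because it is 1 of the 4 members at an unadjusted p under 0.05 and reads the coding sequence.
NDUFS1: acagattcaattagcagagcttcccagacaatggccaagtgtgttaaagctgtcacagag

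NDUFA2, a small accessory subunit, was read at 14.27, 14.30, 13.76 and 13.71 with saline and 14.29, 14.23, 14.33 and 14.49 with dexamethasone. In this gene saline 1 and saline 2 fell among the dexamethasone samples and saline 3 and saline 4 lay below all of them. Its difference was 0.33 ± 0.17 (SE), with an adjusted p of 0.399 by limma, and 0.15 ± 0.12 (SE) with outlier spots kept, when another of its 5 probes stood for the gene.

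NDUFS3, a core subunit of the module that reduces ubiquinone, was higher by 0.21 ± 0.13 (SE), and its groups overlapped. The other accessory subunits described here ran from -0.07 to 0.17. NDUFB3 (0.17), NDUFA8 (0.17), NDUFA7 (0.10), NDUFA1 (0.07), NDUFB5 (0.04) and NDUFC2 (0.02) lay above 0, while NDUFS6 (-0.04), NDUFA6 (-0.05) and the NDUFB1-like gene LOC100349096 (-0.07) lay below it. Each of these differences was smaller than 1.5 times its standard error. Single probes of these genes went further down: a second LOC100349096 probe, read in 7 samples, gave -0.62 ± 0.24 (SE), and 1 of the 3 tested NDUFB5 probes, also read in 7, gave -0.28 ± 0.12 (SE).

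The complex I genes were split between the samples read in each dye. Among the Cy5 samples, replicates 2 and 4, all 16 tested genes had a higher mean with dexamethasone, with a median difference of 0.19. Among the Cy3 samples, replicates 1 and 3, 8 of 16 did, with a median of 0.02. Over all 31 tested members 93.5% lay above 0 in Cy5 and 64.5% in Cy3, and over all genes 51.5% in Cy5 and 53.3% in Cy3. Each dye holds 2 samples a group, so dye and sample cannot be told apart here, and the difference between the dyes was not tested.

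NDUFAF2 and NDUFAF4 are assembly factors that bind to complex I while it is being built. NDUFAF2 gave 8.80, 8.65, 8.38 and 8.46 with saline and 8.66, 9.25, 9.04 and 9.36 with dexamethasone. Dexamethasone 1 fell between the saline samples and the 3 others lay above them. The difference of 0.50 ± 0.18 (SE), a fold of 1.42, was the largest among the members, with an unadjusted p of 0.0212 and an adjusted p of 0.338 by limma. The probe was dim and well above background in 3 of 4 saline samples.

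The probes of NDUFAF2 did not all share this difference. The array holds 5 probes for it that begin 1 base apart, at bases 370 to 374 of the array's transcript, on the plus strand of chromosome 11 (oryCun2, chr11:77189470-77189533 from the first to the last). They are shown because they share 56 of their 60 bases, in capitals, and gave values on both sides of 0.
NDUFAF2 from base 370: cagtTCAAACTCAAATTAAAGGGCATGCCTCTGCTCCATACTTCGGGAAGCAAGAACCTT
NDUFAF2 from base 371: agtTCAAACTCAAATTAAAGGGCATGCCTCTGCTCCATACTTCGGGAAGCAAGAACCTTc
NDUFAF2 from base 372: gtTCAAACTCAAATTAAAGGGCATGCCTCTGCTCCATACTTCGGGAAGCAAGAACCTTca
NDUFAF2 from base 373: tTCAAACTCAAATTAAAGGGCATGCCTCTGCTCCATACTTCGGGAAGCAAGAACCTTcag
NDUFAF2 from base 374: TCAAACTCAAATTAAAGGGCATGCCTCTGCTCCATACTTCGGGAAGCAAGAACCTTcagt

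From the first to the last the differences were 0.42, 0.50, 0.05, 0.07 and -0.06, with standard errors between 0.14 and 0.30. The first 2 probes were higher with dexamethasone by more than 2 standard errors and the other 3 lay within 1 standard error of 0.

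NDUFAF4 was higher by 0.20 ± 0.11 (SE), with an adjusted p of 0.415 by limma, and its 5 probes were split as well, 3 above 0 (0.15 to 0.20) and 2 below (-0.19 and -0.20). NDUFAF3, read by a single probe, gave -0.04 ± 0.11 (SE).

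NDUFC2, an accessory subunit of the membrane arm, offered a check on probes of the same sequence. The array carries 4 of its probe sequences under 2 probe names each. The pair shown here lies on chromosome 1 (oryCun2, chr1:138686694-138688209, plus strand) and spans 1516 bases of genome with its 60 bases, and it is the pair with values in all 8 samples at both places.
NDUFC2 from base 302: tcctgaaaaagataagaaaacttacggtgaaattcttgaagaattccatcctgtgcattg

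The 2 copies gave differences of 0.27 ± 0.13 (SE) and 0.12 ± 0.12 (SE), and in each of the 8 samples their levels differed by 0.18 to 0.37 in log2 intensity. The pair that begins at base 273, read in 7 samples, gave 0.02 and 0.09, with levels 0.39 to 0.64 apart. The groups were apart at 1 copy of the first pair and overlapped at the other. With outlier spots kept, the copies of the 3 other pairs lay on opposite sides of 0, at 0.23 and -0.09 from base 271, 0.36 and -0.01 from base 272, and -0.09 and 0.09 from base 273.

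Complex II is succinate dehydrogenase, which belongs both to the respiratory chain and to the citric acid cycle. It was represented by SDHB, the iron-sulfur subunit, SDHD, a membrane anchor, LOC100338858, which resembles SDHD, and the assembly factor SDHAF2. SDHD and SDHB, 2 subunits of the same enzyme, lay on opposite sides of 0, and neither changed by the test.

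SDHD was read at 11.45, 11.81, 11.69 and 11.85 in saline 1 to 4 and at 12.30, 12.00, 11.96 and 11.94 in dexamethasone 1 to 4. The groups did not overlap. The difference was 0.35 ± 0.15 (SE, n = 4 and 4), a fold of 1.28, with an unadjusted p of 0.0453 and an adjusted p of 0.360 by limma. It was 0.56 among the Cy3 samples and 0.14 among the Cy5 samples.

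SDHD has 5 probes that overlap on the minus strand of chromosome 1 (oryCun2, chr1:104273285-104273350 from the lowest to the highest base), all within coding sequence, and 2 more near the end of its transcript. The 5 are printed because each of them lay above 0 and they share 54 bases, in capitals.
SDHD from base 393: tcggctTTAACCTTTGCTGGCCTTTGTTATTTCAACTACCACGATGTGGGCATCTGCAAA
SDHD from base 396: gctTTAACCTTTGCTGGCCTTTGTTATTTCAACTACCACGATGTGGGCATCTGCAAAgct
SDHD from base 397: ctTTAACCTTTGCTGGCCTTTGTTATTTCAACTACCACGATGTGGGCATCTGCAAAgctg
SDHD from base 398: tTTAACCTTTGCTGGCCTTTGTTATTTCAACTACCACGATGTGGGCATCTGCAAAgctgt
SDHD from base 399: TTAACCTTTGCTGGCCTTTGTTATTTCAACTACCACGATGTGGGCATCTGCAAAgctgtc

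In this order the differences were 0.35, 0.36, 0.45, 0.16 and 0.25, with standard errors of 0.12 to 0.15. The groups were apart at the first 3 probes and overlapped at the last 2. Because the probes share nearly all of their bases, they are repeated readings of 1 stretch of the transcript and not separate evidence. With outlier spots kept, the 2 further SDHD probes also lay above 0, and LOC100338858 gave 0.42 ± 0.17 (SE) with an adjusted p of 0.352 by limma and the groups apart. Only saline 2, dexamethasone 3 and dexamethasone 4 had unmarked spots for LOC100338858.

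SDHB was steady with saline, at 12.04, 12.09, 12.01 and 12.02, and lay at 11.95, 11.79, 11.79 and 12.05 with dexamethasone. Dexamethasone 4 fell among the saline samples and the 3 others lay below them. The difference was -0.14 ± 0.11 (SE, n = 4 and 4), with an adjusted p of 0.530 by limma, and it had the same sign in Cy3 (-0.15) and Cy5 (-0.13).

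SDHB has 5 overlapping probes. The 4 that were tested gave -0.18, -0.21, -0.10 and -0.14, and the fifth, testable with outlier spots kept, gave -0.15. SDHAF2, which helps to attach the flavin cofactor to the catalytic subunit, was higher by 0.13 ± 0.12 (SE) over 3 saline and 4 dexamethasone samples, with 4 of its 5 probes above 0.

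**Figure D4:**
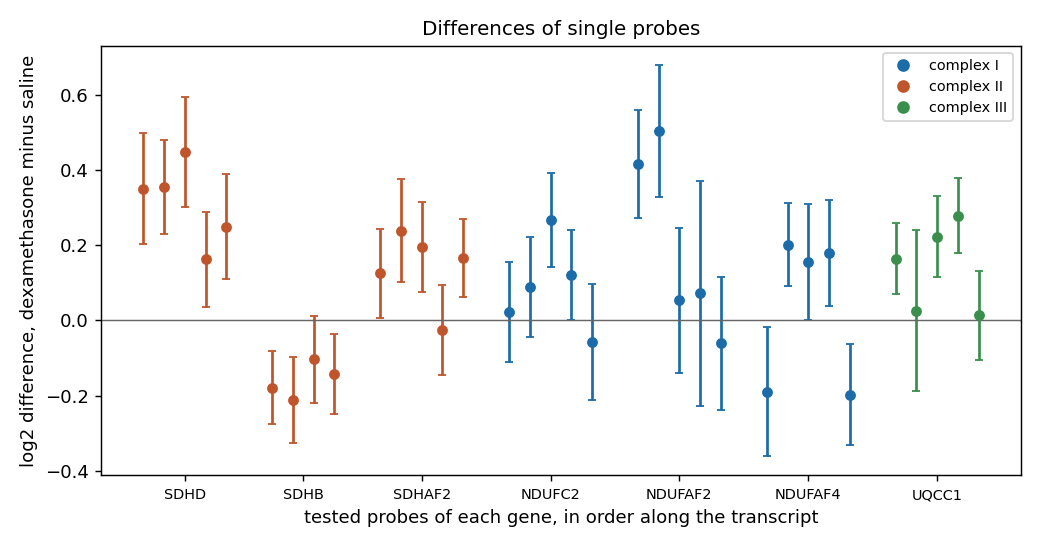
Log2 differences (dexamethasone minus saline) with standard errors on the y axis for the tested probes of 7 member genes, in transcript order on the x axis. The SDHD probes lie above 0 (0.16 to 0.45), the tested SDHB probes below 0 (-0.21 to -0.10), and those of NDUFAF2 and NDUFAF4 lie on both sides.

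Complex III was represented by the core proteins UQCRC1 and UQCRC2, the small subunits UQCRQ and UQCRH, and the assembly factor UQCC1. All 5 were tested and lay above 0, with a median of 0.20, and each was higher with dexamethasone in the Cy3 samples and in the Cy5 samples. Over all genes 35.6% lay above 0 in both dyes. None of the 5 changed by the test.

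UQCRC1 was read at 11.67, 11.30, 11.52 and 11.43 with saline and 11.91, 11.52, 12.23 and 11.53 with dexamethasone. The 2 Cy3 samples with dexamethasone were the highest, and the 2 Cy5 samples lay among the saline values. The difference was 0.32 ± 0.13 (SE, n = 4 and 4), a fold of 1.25, with an adjusted p of 0.357 by limma. A single probe reads this gene, on the minus strand of chromosome 9 (oryCun2, chr9:16301657-16302406), with 750 bases of genome under its 60, and it is shown as the member of complex III with the smallest p.
UQCRC1: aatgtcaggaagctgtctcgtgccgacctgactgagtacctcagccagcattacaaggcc

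UQCRC2, the other core protein, stood at 12.93, 13.04, 12.61 and 12.96 with saline and 13.25, 12.97, 13.07 and 13.05 with dexamethasone. Saline 2 lay above dexamethasone 2, and the other saline samples lay below all 4 dexamethasone samples. The difference was 0.20 ± 0.14 (SE), with an adjusted p of 0.501 by limma. With outlier spots kept, a brighter probe stood for the gene and gave 0.37 ± 0.13 (SE), an adjusted p of 0.336 and groups without overlap. At this probe the spots of saline 3 (13.18) and saline 4 (13.21), the lowest values, were marked as outliers.

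UQCC1 was higher by 0.22 ± 0.11 (SE), with an adjusted p of 0.374 by limma, and its 5 tested probes all lay above 0 (0.01 to 0.28). Its probe was dim and well above background in 3 of 4 saline samples. UQCRQ was higher by 0.19 ± 0.11 (SE), with an adjusted p of 0.439, and by 0.02 ± 0.17 (SE) with outlier spots kept, when a probe at base 568 of the transcript replaced that at base 233. UQCRH, read in 3 saline samples, was higher by 0.13 ± 0.12 (SE).

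Complex IV was thinly covered, with 4 genes of nuclear subunits, and none encoded in mitochondrial DNA. COX6A1, the form of subunit 6A found in most tissues, was read at 16.00, 16.13 and 15.54 in saline 1, 2 and 4 and at 16.02, 16.00, 16.03 and 16.30 with dexamethasone. Saline 4 was the lowest sample and the others overlapped. The difference was 0.23 ± 0.18 (SE, n = 3 and 4), with an adjusted p of 0.552 by limma. COX7B2, a paralogue of the subunit 7B gene, was lower by 0.22 ± 0.13 (SE), the lowest value among the members, with an adjusted p of 0.451 and its 3 tested probes on both sides of 0 (-0.22 to 0.09).

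COX6A2, the form of subunit 6A known from heart and skeletal muscle, varied far more within the groups than between them. It was read at 10.23, 11.27, 12.72 and 11.65 in saline 1 to 4 and at 12.45, 10.40, 10.53 and 12.55 in dexamethasone 1 to 4. High and low samples occurred in both groups, and the mean difference was 0.02 ± 0.81 (SE, n = 4 and 4). Its SD was 1.03 in log2 units with saline and 1.18 with dexamethasone, and its pooled SD was larger than that of 99.8% of the genes tested.

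Both COX6A2 probes ranked the 7 samples that they share alike, except that dexamethasone 2 and dexamethasone 3, both low, changed places. They are printed with the COX6A1 probe to show how far the readings are separate. Capitals mark the bases that differ from the COX6A2 probe at base 273, aligned without gaps.
COX6A2 from base 273: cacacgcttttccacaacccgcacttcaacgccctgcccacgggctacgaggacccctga
COX6A2 from base 267: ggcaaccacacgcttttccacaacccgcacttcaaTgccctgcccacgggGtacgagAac
COX6A1 from base 314: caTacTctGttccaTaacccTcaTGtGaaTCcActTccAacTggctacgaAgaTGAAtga

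The COX6A1 probe differs from it at 19 of 60 bases and the second COX6A2 probe at 3 of 54 aligned bases. Other muscle genes were read beside COX6A2. Of 4 listed markers 3 had a probe and 2 were tested. MYH7, a heavy chain of muscle myosin, stood at 9.57, 9.81, 10.08 and 10.10 with saline and 9.97, 9.09, 9.62 and 10.77 with dexamethasone. ACTN2, a Z-disc protein, stood at 8.65, 8.45, 8.52 and 8.51 with saline and 8.38, 8.62, 8.62 and 8.01 with dexamethasone. The mean of these 2 markers ran from 9.11 to 9.30 with saline and from 8.85 to 9.39 with dexamethasone. Over the dexamethasone samples COX6A2 was high in replicates 1 and 4. MYH7 was also highest in these 2 replicates, and ACTN2 was lowest in them. Some markers of other cell types spread widely over the dexamethasone samples as well. TTR, a choroid plexus gene, stood at 18.27, 15.48, 13.94 and 18.18 with dexamethasone and 16.44, 15.50, 16.68 and 17.14 with saline, and NEFL was high in the same 2 dexamethasone samples. The other markers of choroid plexus, ependyma and neurons did not all follow this order. With dexamethasone DNAI1 stood at 9.78, 9.50, 9.36 and 9.76 and KL at 11.49, 11.76, 11.86 and 11.82. STMN2 stood at 16.96, 16.85, 16.87 and 16.99, SYT1 at 11.30, 11.52, 11.50 and 11.50, and RTN1 at 16.10, 15.70, 15.80 and 15.39. KL and SYT1 were thus lowest in dexamethasone 1, and RTN1 in dexamethasone 4. The part of these cell types in the spread of COX6A2 was not tested.

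**Figure D5:**
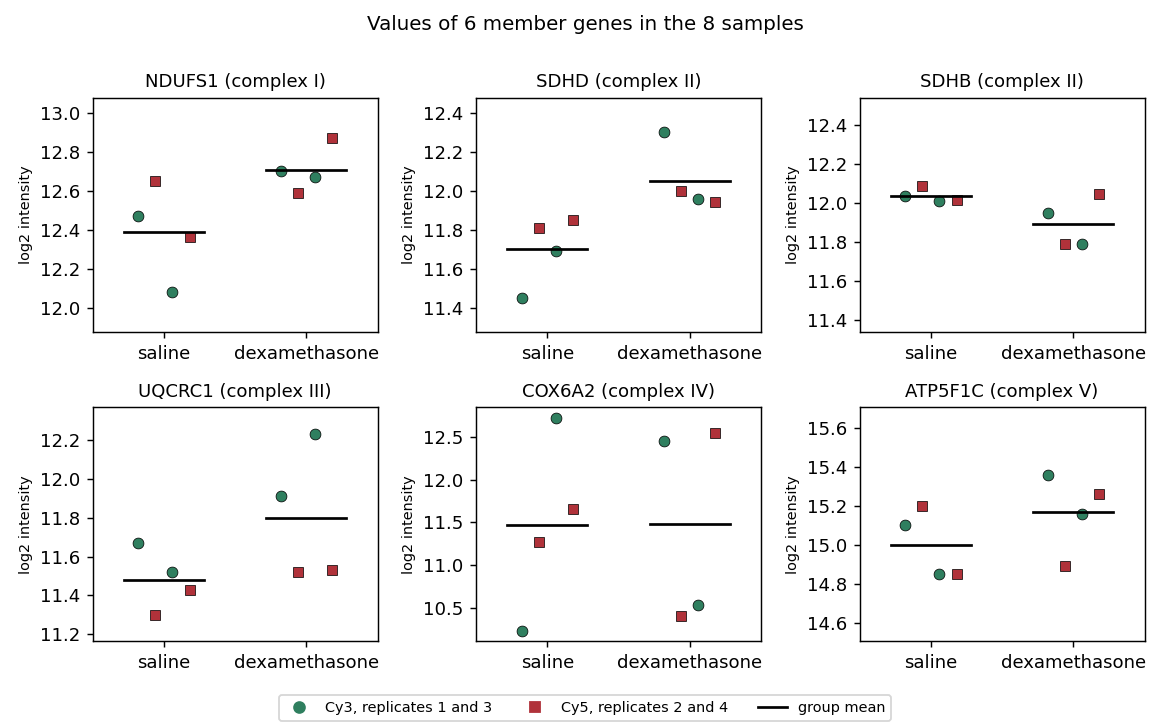
Normalised log2 intensity on the y axis of 6 member genes in the saline and dexamethasone samples on the x axis, 4 each, with circles for Cy3, squares for Cy5 and a line at the group mean. Each panel has its own range. The groups are apart for SDHD, and COX6A2 spans 10.23 to 12.72 over the saline samples alone.

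ATP synthase was represented by 7 genes, of which 4 were tested. These 4 lay above 0, between 0.16 and 0.21, and none changed by the test. ATP5F1C, the central stalk of the catalytic head, was read at 15.10, 15.20, 14.85 and 14.85 with saline and 15.36, 14.89, 15.16 and 15.26 with dexamethasone. The groups overlapped, with saline 3 and saline 4 lowest. The difference was 0.17 ± 0.15 (SE, n = 4 and 4), with an adjusted p of 0.599 by limma.

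ATP5F1A, a subunit of the catalytic head, was read at 15.30, 15.60 and 14.94 in saline 1, 2 and 4 and at 15.53, 15.37, 15.52 and 15.49 with dexamethasone. The difference was 0.21 ± 0.18 (SE, n = 3 and 4), with an adjusted p of 0.581 by limma, and saline 2 was the highest of the 7 values. Its probe, on the minus strand of chromosome 9 (oryCun2, chr9:87502667-87502726), is shown for the catalytic head.
ATP5F1A: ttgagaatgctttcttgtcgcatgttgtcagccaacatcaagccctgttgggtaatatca

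ATP5PO, which joins the head to the peripheral stalk, was higher by 0.16 ± 0.12 (SE, n = 4 and 4), with an adjusted p of 0.530 by limma. ATP5MC1, which encodes the proton-carrying ring subunit, was higher by 0.16 ± 0.24 (SE, n = 3 and 4), with saline 4 (13.90) well below the 6 other values (14.48 to 14.91). With outlier spots kept, ATP5MC2, a second gene for the same ring subunit, gave -0.02, the membrane subunit ATP5MG -0.20, and the peripheral stalk gene LOC100359144 0.21.

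Read by single probe, 66 of the 129 member probes could be tested, 48 of them above 0 (72.7%, against 56.4% of all 20704 probes). None was called, against 0.0338% of all probes. At an unadjusted p under 0.05 there were 10, where 12.7% of all probes passed, and 8 of these 10 were higher with dexamethasone. The 2 lower ones were the LOC100349096 and NDUFB5 probes given above. The groups were apart with dexamethasone higher at 7 probes, from SDHD, SDHAF2, NDUFC2 and UQCC1 (10.6%, against 6.55% of all probes), and with dexamethasone lower at 0 (against 5.86%). Of the 13 genes with at least 2 tested probes, 8 had probes on both sides of 0.

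Other genes of the same pathways were read from lists. Over all genes tested 54.3% lay above 0, with a median of 0.02. In Cy3 this share was 53.3% with a median of 0.03, and in Cy5 51.5% with a median of 0.01. Subunits of the 5 complexes whose descriptions do not hold the phrases numbered 68, of which 20 had a probe and 15 were tested, 9 of them above 0 with a median of 0.05. NDUFB4, an accessory subunit of complex I, stood at 12.61, 12.89 and 12.80 in saline 1, 2 and 4 and at 13.33, 13.49, 13.56 and 13.58 with dexamethasone. Its groups were well apart, and the difference was 0.75 ± 0.11 (SE), with an adjusted p of 0.110 by limma, which missed the threshold. Without the second saline array the same probe gave 0.74 with an adjusted p of 0.0262 by limma, and a brighter probe that then became testable gave 0.18 with one of 0.342. Its other tested probe gave 0.09. COX8A, a subunit of complex IV, was lower by 0.43 ± 0.15 (SE), with an adjusted p of 0.343. Its probe was dim, at 8.35 to 9.07 with saline and 8.28 to 8.42 with dexamethasone.

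Among other assembly and expression factors of the complexes, 16 of 22 tested genes lay above 0, with a median of 0.11. LRPPRC, which stabilises mitochondrial messenger RNA, gave 0.30 and NDUFAF6 -0.20. Regulators of mitochondrial biogenesis and mitochondrial DNA were the 1 list with a median below 0 (-0.06, 4 of 12 above 0). In it TFAM, which packages and transcribes mitochondrial DNA, gave 0.43 ± 0.24 (SE), with the saline samples at 9.47, 9.71, 8.68 and 8.76 and the dexamethasone samples between 9.50 and 9.68. The low values again belonged to saline 3 and saline 4. PPARGC1B, a coactivator of biogenesis, gave -0.36 from a dim probe (8.12 to 9.17).

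Of the citric acid cycle and pyruvate dehydrogenase genes 12 of 17 lay above 0, with a median of 0.16. Kinases that switch off pyruvate dehydrogenase lay on both sides of 0: PDK3 gave 0.40 ± 0.11 (SE) and PDK1 -0.36 ± 0.10 (SE), with adjusted p-values of 0.282 and 0.293 by limma. Both genes were read from dim probes, PDK3 at 8.05 to 8.65 and PDK1 at 8.34 to 8.97 over the 8 samples. The second PDK1 probe gave 0.11. Glycolysis genes lay above 0 in 10 of 13, with a median of 0.12, among them the aldolase ALDOC (0.63) and the monocarboxylate carrier SLC16A7 (0.38). The SLC16A7 probe was dim, at 8.26 to 8.99. In the Cy3 samples 12 of the 13 glycolysis genes lay above 0 with a median of 0.29, and in the Cy5 samples 6 of 13 with a median of -0.01.

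Mitochondrial carriers, channels and uncoupling proteins lay above 0 in 10 of 12 genes, with a median of 0.10, among them VDAC2 (0.35), a channel of the outer membrane, and SLC25A14 (0.26). Genes of mitochondrial fission, fusion, cristae and mitophagy lay above 0 in 15 of 17, with a median of 0.14, among them the mitophagy receptor BNIP3 (0.65) and the fission enzyme DNM1L (0.21). These too were split by dye, with a median of 0.26 and 14 of 17 above 0 in Cy3. In Cy5 the median was -0.000393, with 8 of 17 above 0. Antioxidant genes lay above 0 in 7 of 12, with a median of 0.05, with TXNRD2 at 0.24 and TXN at -0.16. Genes of the sodium pump, creatine kinases and adenylate kinases lay above 0 in 5 of 7, with a median of 0.11, with mitochondrial creatine kinase CKMT1B at 0.51 and the pump subunit ATP1B2 at -0.52. ATP1B2 was read from a dim probe, at 8.48 to 9.52. No gene of these lists was called, and the smallest adjusted p was that of NDUFB4. Without the first saline array and with the probes kept, LRPPRC, TFAM, SLC16A7, CKMT1B and PDK3 were called higher and COX8A, ATP1B2 and PDK1 lower. Only the list genes chosen by smallest p in these same data were followed in this fit, and the others were not. The calls among them therefore cannot be set against the 21.3% of all genes called there.

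Markers of brain cell types were read beside these genes. Of 6 neuronal markers 5 had a probe, all well above background in the 8 samples, and 4 were tested, from -0.32 to 0.44 with 3 above 0. They did not go one way: SYT1 gave -0.32 ± 0.13 (SE), STMN2 0.12 ± 0.12 (SE), RTN1 0.23 ± 0.15 (SE) and NEFL 0.44 ± 0.70 (SE). NEFL, a neurofilament gene, spread widely with dexamethasone, at 15.67, 13.70, 13.92 and 15.72, and lay between 13.86 and 14.53 in saline 2 to 4. The mean of the 3 neuronal markers with 8 values, which leaves NEFL out, ran from 14.54 to 14.79 with saline and from 14.63 to 14.79 with dexamethasone. Of 6 astrocyte markers 4 were tested, with 3 above 0, and of 7 oligodendrocyte markers 3, with 2 above 0. The 2 tested markers of oligodendrocyte precursors gave -0.12 and 0.16. Of 3 tested markers of endothelium and pericytes 2 lay above 0, and ABCB1, a transporter of the blood-brain barrier, gave 0.73 ± 0.14 (SE), with an adjusted p of 0.174 by limma. The 3 tested markers of choroid plexus and ependyma ran from -0.49 (KL) to 0.46 (DNAI1). The 3 markers of the meninges lay above 0 (0.42 to 1.19), as did the 3 erythroid ones (0.17 to 0.53), and both of the tested microglial ones lay below it (-0.39 and -0.15). The mean of the meningeal markers ran from 10.55 to 11.94 with saline and from 11.32 to 12.89 with dexamethasone, so the groups overlapped. The microglial mean overlapped too, at 8.98 to 9.79 with saline and 8.93 to 9.20 with dexamethasone. CD14, the microglial marker at -0.39, stood at 9.23, 9.20, 10.21 and 10.53 in saline 1 to 4 and between 9.31 and 9.55 with dexamethasone. Both liver markers stayed below the filter, and no marker of the lists was called. The part of cell composition in the members' values was not tested.

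Scaling changed the size of the shift. With the scanner's processed signals, scaled to the 75th percentile, 21 of 31 members lay above 0 (67.7%) with a median of 0.05, and the median of all genes was -0.02. With the deposited table, scaled to its median, 30 of 31 did (96.8%), with a median of 0.28 where that of all genes was 0.13. Without scaling between arrays all genes had a median of -0.60 and the members one of 0.39.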

How the data were processed

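RNA of 8 forebrain samples, 4 per group, was read on 4 two-colour arrays, and the deposited scanner files hold intensity per spot and dye, with flags, from Agilent Feature Extraction (10.7.3.1 per the submitters' processing notes, 11.0.1.1 per the file headers, build oryCun2). The deposited series table holds a signal that matched the median minus background intensity of the sample's own dye, divided by a constant per column. Here, mean signals were corrected with normexp (offset 50), normalised by loess and Aquantile and split into log2 values. Outlier spots were left out, and a probe was kept if 4 or more of the 8 samples read it well above background. A gene was read from its brightest probe with at least 3 values per group. Groups were compared with limma 3.58.1 in R 4.3.3 (dye as covariate, array as random block, correlation 0.239) over 11184 genes. The design text names biological replicates. Members and lists were chosen with earlier results of these data known. Named are the members, with up to 4 per complex by smallest p in detail, and 2 genes per list. Of the 40 genes 37 had a symbol in a RefSeq table (mOryCun1.1), and 17 further probes of 11 member genes without a phrase were not used. Alternatives are given in the closing section. The values of 1 tested member and some probe sequences are not reported here.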

Additional observations from a re-analysis of the deposited data

Results flagged for a closer look

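In 55 groups of 4 values from the tested members, 3 held a sample far from the other 3, where chance flags about 1 in 20 groups. COX6A1 was 16.30 in dexamethasone 4, against 16.00 to 16.03 in the other dexamethasone samples. SDHAF2 was 11.43 in dexamethasone 1, against 11.23 to 11.26. SDHD was 12.30 in dexamethasone 1, against 11.94 to 12.00.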

How the results depend on the processing

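The count of genes called over all genes, 7, was 23 at an adjusted p under 0.10, 25 without the array block, 18 without the dye term, 15 with processed signals and 11 with the mean of kept probes. It was 2 with no filter on dim probes and 2 with probes well above background in 2 samples, 3 with probes so in all 8 samples, and 0 with loess only, with array means, in Cy3 alone and in Cy5 alone. It was 2258 without the first saline array, 193 without the second, and 0 and 1 without the first and second dexamethasone array, and 2202, 203, 0 and 1 with the probes of the full analysis kept. Leaving out single samples gave 0 to 14. Members called, 0 in the main analysis, were 8 without the first saline array (7 with probes kept) and 0 under the other settings. Their median difference was 0.385 with loess only, 0.282 with the deposited table, 0.0546 with processed signals and 0.0296 without the second saline array. With probes kept it was 0.272 without the first saline array and 0.0594 without the second. Members above 0 were 25 of 31 (80.6%), and 48 of 66 (72.7%) when each probe counted. Their share was lowest in Cy3 alone (17 of 27, 63%, against 53.5% of all genes). It was 93.5% in Cy5 alone (against 51.9%) and highest with the deposited table (96.8%, against 63.9%).

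With loess only, signs turned for NDUFAF2 (-0.633), NDUFAF4 (-0.396), SDHB (0.137), UQCC1 (-0.918), TXNRD2 (-0.525), TXN (0.124), TFAM (-0.357), SLC16A7 (-0.972) and PDK3 (-1.15). They also turned for SDHB with the deposited table (0.104), for ATP5PO (-0.0272) and ATP5F1C (-0.0262) with processed signals, for COX6A2 (-0.7) without the first saline array, for ATP5MC1 (-0.156) and TFAM (-0.00865) without the second, and for COX6A2 (-0.0407) without the second dexamethasone array. ATP5F1A gave -0.187 without the first saline array, where another of its probes stood for the gene, and its own probe was left with 1 saline value. The other turns above came with the probe of the full analysis, and those without an array were the same with probes kept. Leaving out single samples moved COX6A2 between -0.535 and 0.592. Of 1246 values of named genes under these settings, 1193 kept direction and side of the threshold, 28 kept direction and were called, and 25 turned. No named gene was called in the main analysis, so keeping the side of the threshold means only that the gene stayed uncalled. The cause of these changes was not tested.

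The replicate numbers did not pair the samples: same-numbered samples had correlations of -0.266 to -0.0983. With the replicate number as a block, 1 gene and 0 members were called, and the members' median was 0.158. The settings for members above 0 and those with probes kept were chosen after seeing the data. The 4 arrays limit the precision.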
